A study of Mus musculus with 6 samples.

Results

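Sirtuins and other enzymes that use NAD were examined in whole mouse kidney on 6 Agilent 1-colour arrays, 3 per group. The genes were chosen by name and are 10 of the 17135 genes tested: the sirtuins Sirt1 to Sirt7, the poly(ADP-ribose) polymerase Parp1, the NAD glycohydrolase Cd38 and the nicotinamide nucleotide transhydrogenase Nnt. The Pck1-CKO group were Pck1 flox/flox mice with γGT-Cre tg/+, a transgene that drives Cre in the renal proximal tubule, so the other cells of the kidney keep the gene. The WT group were littermates matched to them in age and sex. The controls of the breeding were Pck1 flox/+ mice with or without γGT-Cre tg/+, and Pck1 flox/flox mice without it, and the labels do not say which of these each WT array held. All mice were on the C57BL/6J background and were 32 weeks old. Pck1 encodes the cytosolic phosphoenolpyruvate carboxykinase of gluconeogenesis. Nothing in the labels says that each array held a separate mouse, so the p-values measure only the spread between these samples.

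NAD carries electrons in metabolism and is also consumed as a substrate. Sirtuins split it to remove acetyl and other acyl groups from proteins, PARP enzymes split it to build chains of ADP-ribose, and CD38 hydrolyses it at the cell surface. Cells of the proximal tubule are rich in mitochondria, where SIRT3, SIRT4 and SIRT5 reside, and in liver SIRT1 deacetylates regulators of gluconeogenic genes. C57BL/6J mice are known to carry a deletion of several Nnt exons and to lack functional NNT protein, so that an Nnt signal in this strain is a transcript level only.

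Signals are given on the log2 scale relative to the 75th percentile of the same array. A log2 change is Pck1-CKO minus WT, with its standard error from limma and its p adjusted over all genes tested. Between 37118 and 38707 of 56605 probes lay well above background on an array, and precision is limited by there being only 3 arrays per group. The targeted gene was not lower on the arrays labelled Pck1-CKO. Pck1 measured 6.44, 6.60 and 6.90 in Pck1-CKO and 6.29, 6.32 and 5.63 in WT, a log2 change of 0.56 ± 0.22 (limma adjusted p = 0.152). Without WT 3, the lowest array, it was 0.34 (adjusted p = 0.185). The sources used here do not place its 1 probe inside or outside the deleted region, so this value does not check the labels. The Pck1-CKO arrays filled slide row 2 and the WT arrays slide row 1, and row and genotype cannot be told apart.

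Proximal tubule markers were abundant in both groups. The summed linear signal of 10 such genes, relative to the 75th percentile, was 1273 to 1322 in Pck1-CKO and 1243 to 1315 in WT. None of the 10 was called in limma, where 8.04% of all genes were, and 6 changes were positive and 4 negative. With an unadjusted p below 0.05, 2 of them were higher and 1 was lower, where 31.2% of all genes lay under it. Of 9 markers of other kidney segments, 1 was higher and 3 were lower, which is 44.4% against 8.04% of all genes. Aqp2 of the collecting duct was the higher one, and Slc4a1 and Slc12a3 were among the lower ones. The median log2 change was -0.24, with 3 positive and 6 negative changes. By an unadjusted p below 0.05, 3 were higher and 6 lower, where 31.2% of all genes lay under it. The summed signals of the list were 501 to 517 in Pck1-CKO and 478 to 493 in WT. Umod, the brightest of the list, weighs most in that sum. Its mean log2 signal was 8.55 in Pck1-CKO and 8.41 in WT, a change of 0.14 (limma adjusted p = 0.121). All 10 adipose markers had positive changes, and their summed signal was 100 to 147 in Pck1-CKO and 14.9 to 31.3 in WT. Ucp1, Fabp4, Cox8b, Lipe and Cidea passed the test, 5 of 10, where 8.04% of all genes did. Adipoq, Plin1, Cfd and Retn did not pass, with changes of 2.94, 3.21, 3.22 and 3.01. Their limma adjusted p were 0.0781, 0.0549, 0.0681 and 0.0769, and their groups did not overlap. Lep changed by 0.037 (adjusted p = 0.815). None of the segment and adipose genes named as passing did so without Pck1-CKO 1, without Pck1-CKO 2 or without WT 2, and with no filter on dim probes only Slc4a1 and Slc12a3 among them passed. Lipe, Cidea and Cox8b did not pass without Pck1-CKO 3, nor did Aqp2, Slc12a3, Fabp4 and Lipe without WT 1. The part of fat and of segment makeup in the members' values was not tested.

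None of the 10 members passed the test between Pck1-CKO and WT kidneys. At a limma adjusted p under 0.05, 0 were higher and 0 lower, where 8.04% of all genes tested were called, 4.34% higher and 3.7% lower. That split was 743 and 634 genes, and 1218 and 568 when arrays were scaled on the median of probes well above background on all arrays. By an unadjusted p below 0.05 the count was 0 of 10 as well, where 31.2% of all genes lay under it. Cd38 had the lowest adjusted p, 0.225. The unadjusted 95% intervals of the 10 folds ran from 0.729-fold, the lower end for Sirt5, to 1.29-fold, the upper end for Sirt7. Each interval covers a fold of 1 and bounds the change without showing that there was none. Under 17 other processing choices the count was again 0 of 10, where between 0.0233% and 34.4% of all genes were called.

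Across the members, the median absolute log2 change was 0.10, and it was 0.12 over all genes tested and 0.39 over the genes called. The median signed change was 0.035 over the members and 0.0091 over all genes. Arrays of a group spread by a median SD of 0.082 in the members and 0.086 in all genes. The change exceeded the gene's own SD, pooled over both groups, for Sirt2, Sirt6, Parp1 and Cd38, which is 4 of 10 members, and it did so for 61.3% of all genes. By sign, 7 changes were positive and 3 negative, with 5 positive and 2 negative among the 7 sirtuins. The signs of Sirt3 and Nnt turned negative after quantile normalization, and that of Sirt1 when the probes of a gene were averaged.

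**Figure D1:**
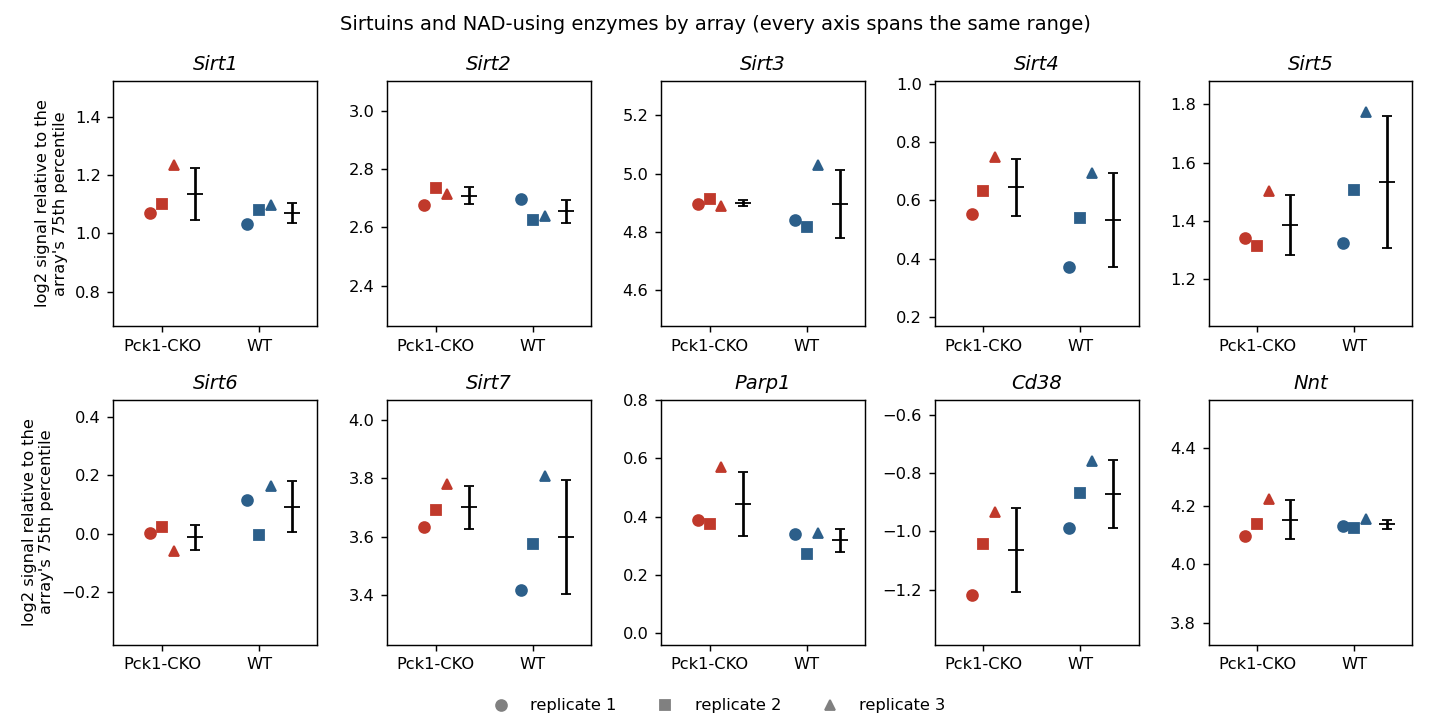
Normalised log2 signal (vertical axes, relative to the array's 75th percentile) of each member on the 3 Pck1-CKO and the 3 WT arrays, 1 point per array, with bars for the mean and SD of each group. All panels span the same log2 range. The groups overlap for every member except Parp1, whose lowest Pck1-CKO value of 0.37 lies above the highest WT value of 0.34.

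Among the sirtuins of nucleus and cytosol, Sirt1, which deacetylates histones and transcription regulators, measured 1.07, 1.10 and 1.23 in Pck1-CKO and 1.03, 1.08 and 1.10 in WT. Pck1-CKO 3 stood above all other arrays, and the other values of both groups interleaved. The log2 change was 0.064 ± 0.057 (limma adjusted p = 0.481), or 1.05-fold, with a 95% interval of 0.948 to 1.15. Leaving out Pck1-CKO 3 made it 0.014. Sirt2, mainly a cytosolic deacetylase with tubulin among its substrates, measured 2.68, 2.74 and 2.71 in Pck1-CKO and 2.70, 2.63 and 2.64 in WT. WT 1 lay inside the Pck1-CKO range and the other WT arrays below it. Its log2 change was 0.054 ± 0.041 (limma adjusted p = 0.415), or 1.04-fold, with a 95% interval of 0.967 to 1.11, and the pooled SD of 0.034 was the smallest of the 10 members.

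Sirt6, a chromatin-bound deacylase that acts in DNA repair and represses glycolytic genes, measured 0.0012, 0.022 and -0.06 in Pck1-CKO and 0.12, -0.0032 and 0.17 in WT. WT 2 lay inside the Pck1-CKO range, and WT 1 and WT 3 lay above it. This gave a log2 change of -0.10 ± 0.058 (limma adjusted p = 0.269), or 0.930-fold, with a 95% interval of 0.843 to 1.03. It was -0.069 without WT 3, -0.041 with array weights and -0.23 with its probes averaged (adjusted p = 0.332). Sirt7, the sirtuin of the nucleolus, measured 3.63, 3.69 and 3.78 in Pck1-CKO and 3.42, 3.58 and 3.81 in WT. The WT arrays spread over 0.39 and enclosed all 3 Pck1-CKO arrays. The log2 change of 0.10 ± 0.11 (limma adjusted p = 0.555), or 1.07-fold, with a 95% interval of 0.894 to 1.29, was smaller than the WT spread. Without WT 3 it was 0.20 (adjusted p = 0.138), and without WT 1 it was 0.0092.

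Of the mitochondrial sirtuins, Sirt3, the main protein deacetylase of the matrix, measured 4.90, 4.91 and 4.89 in Pck1-CKO and 4.84, 4.82 and 5.03 in WT. The Pck1-CKO arrays lay within 0.022 of each other, above WT 1 and WT 2 and below WT 3. Between the group means the difference was 0.003 ± 0.065 (limma adjusted p = 0.981), or 1.002-fold, with a 95% interval of 0.896 to 1.12. Without WT 3 it was 0.069 (adjusted p = 0.245).

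Sirt4, which acts on acyl and lipoyl groups of matrix enzymes, measured 0.55, 0.63 and 0.75 in Pck1-CKO and 0.37, 0.54 and 0.69 in WT. WT 1 and WT 2 lay below all Pck1-CKO arrays and WT 3 inside their range. Its log2 change came to 0.11 ± 0.097 (limma adjusted p = 0.476), or 1.08-fold, with a 95% interval of 0.914 to 1.27, and it was 0.19 without WT 3 and 0.029 without WT 1. Sirt5, which removes succinyl, malonyl and glutaryl groups, measured 1.34, 1.31 and 1.50 in Pck1-CKO and 1.32, 1.50 and 1.77 in WT. WT 1 lay inside the Pck1-CKO range, WT 2 at its upper edge and WT 3 above it. For Sirt5 the log2 change was -0.15 ± 0.12 (limma adjusted p = 0.455), or 0.902-fold, with a 95% interval of 0.729 to 1.12, the widest log2 interval of the 10 members. Without WT 3 it was -0.028, and without WT 1 it was -0.25.

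WT 3 was the highest WT array for 9 of the 10 members, Sirt2 being the exception, and it was so for 44.3% of all genes tested. For 6 of the 10 the SD was larger over the WT arrays than over the Pck1-CKO arrays. The share of all genes with a larger WT SD was not computed, so that count does not set the members apart. Leaving out WT 3 brought none of the 10 past the threshold, nor did leaving out any other array.

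Parp1, which builds poly(ADP-ribose) at DNA breaks, measured 0.39, 0.37 and 0.57 in Pck1-CKO and 0.34, 0.27 and 0.34 in WT. It was the only member whose groups did not overlap, 1 of 10, where 38.3% of all genes tested had no overlap, 21.9% with Pck1-CKO above and 16.4% with it below. The log2 change was 0.13 ± 0.065 (limma adjusted p = 0.249), or 1.09-fold, with a 95% interval of 0.975 to 1.22. Pck1-CKO 3 was the highest array, and without it the change was 0.063. Parp1 had the largest positive change and Cd38 the largest negative change of the members, and the RefSeq promoter windows of both are shown for that reason. They are from GRCm38.p6, run from 250 bases before the gene's start to 50 after it, and are read 5′ to 3′ on the gene's strand, with capitals on GGGCGG or CACGTG on either strand.
Parp1 (chr1:180568641-180568940, strand +): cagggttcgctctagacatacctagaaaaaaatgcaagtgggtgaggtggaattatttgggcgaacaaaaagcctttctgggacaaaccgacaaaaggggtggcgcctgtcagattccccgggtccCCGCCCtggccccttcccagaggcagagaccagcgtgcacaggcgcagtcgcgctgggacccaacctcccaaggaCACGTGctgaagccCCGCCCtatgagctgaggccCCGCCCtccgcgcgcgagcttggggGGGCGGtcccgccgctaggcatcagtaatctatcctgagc
Cd38 (chr5:43868559-43868858, strand +): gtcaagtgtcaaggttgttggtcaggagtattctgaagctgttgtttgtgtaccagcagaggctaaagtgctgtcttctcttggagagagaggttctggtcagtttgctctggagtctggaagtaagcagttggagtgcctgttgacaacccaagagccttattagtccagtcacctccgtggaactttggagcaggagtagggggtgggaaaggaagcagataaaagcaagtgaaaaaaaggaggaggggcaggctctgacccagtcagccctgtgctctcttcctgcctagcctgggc
The Parp1 window held 20 CpG, 4 GGGCGG and 1 CACGTG, whereas the Cd38 window held 1 CpG and none of the motifs searched.

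Windows were matched by symbol for 9 of the 10 members, 11 windows in all, and the median over 32851 promoters was 7 CpG. Of the members' 11 windows, 10 held between 15 and 47 CpG, and Cd38 alone lay under 7. The 5 motifs searched on both strands were GGGCGG, in 7 of 11 windows against 35.7% of all promoters, CCAAT, in 3 against 37.4%, CACGTG, in 2 against 7.15%, TGACGTCA, in 0 against 1.79%, and TATAAA, in 0 against 13.6%. Windows of the same gene can overlap. The other window with CACGTG was that of Sirt1, with 47 CpG and 7 GGGCGG.

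Cd38, found on leukocytes among other cells, measured -1.22, -1.04 and -0.93 in Pck1-CKO and -0.99, -0.87 and -0.76 in WT. WT 1 lay inside the Pck1-CKO range and the other WT arrays above it. The log2 change was -0.19 ± 0.095 (limma adjusted p = 0.225), or 0.875-fold, with a 95% interval of 0.743 to 1.03, and over the 6 fits that each left out 1 array it lay between -0.26 and -0.12. Of 13 leukocyte markers tested, 12 had a negative change and 1 a positive one, with a median log2 change of -0.17. By an unadjusted p below 0.05, 7 of the 13 were lower, where 2351 of all 17135 genes tested were lower. Cd79b, a B cell receptor component, fell by 0.44 (limma adjusted p = 0.0356). It was the only one of the 13 to pass, which is 7.69% against 8.04% of all genes. It did not pass without Pck1-CKO 1, Pck1-CKO 2, WT 1, WT 2 or WT 3, with log2 changes of -0.52 to -0.39 over the arrays left out, nor with no filter on dim probes (adjusted p = 0.0825). Ptprc, the common leukocyte antigen, changed by -0.17 (adjusted p = 0.0933). The summed linear signal of the leukocyte list was 49.4 to 57.2 in Pck1-CKO and 57.9 to 62.5 in WT. Itgam and Csf1r, the brightest of the list, weigh most in that sum. Itgam changed by -0.36 (limma adjusted p = 0.0677) and Csf1r by -0.053 (limma adjusted p = 0.435), so the sum mostly reflects these genes. All 8 endothelial markers had a negative change, and 0 were called in limma, where 8.04% of all genes were. By an unadjusted p below 0.05, 2 of the 8 were lower, against 2351 of all 17135 genes. Their summed signal was 37.9 to 40.9 in Pck1-CKO and 42.2 to 43.3 in WT. Plvap had the lowest p of these markers, with a change of -0.12 (limma adjusted p = 0.0994). In whole kidney, fewer cells of a type and less RNA per cell cannot be told apart, and the part of these cells in the Cd38 value was not tested.

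By the root mean square difference of log2 values centred over the 6 arrays, the 3 genes closest to Cd38 were Mks1 at 0.0166, Nhsl1 at 0.0185 and Gnpda2 at 0.0227. Their own changes were -0.19, -0.20 and -0.17, with limma adjusted p of 0.215, 0.199 and 0.25. This likeness describes 6 arrays that share 2 groups and is no test.

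Nnt, which uses the proton gradient of the inner mitochondrial membrane to reduce NADP with NADH, measured 4.10, 4.14 and 4.22 in Pck1-CKO and 4.13, 4.12 and 4.15 in WT. All WT arrays lay inside the Pck1-CKO range. Its log2 change was 0.016 ± 0.047 (limma adjusted p = 0.845), or 1.01-fold, with a 95% interval of 0.933 to 1.10, and the WT arrays lay within 0.032 of each other. Without Pck1-CKO 3 it was -0.020. The 1 probe that the RefSeq table matched to Nnt gave a linear signal of 9275 to 10903 over the 6 arrays. Where the probe lies relative to the exons deleted in C57BL/6J, and the Nnt genotype of these mice, are unstated in the sources used here.

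**Figure D2:**
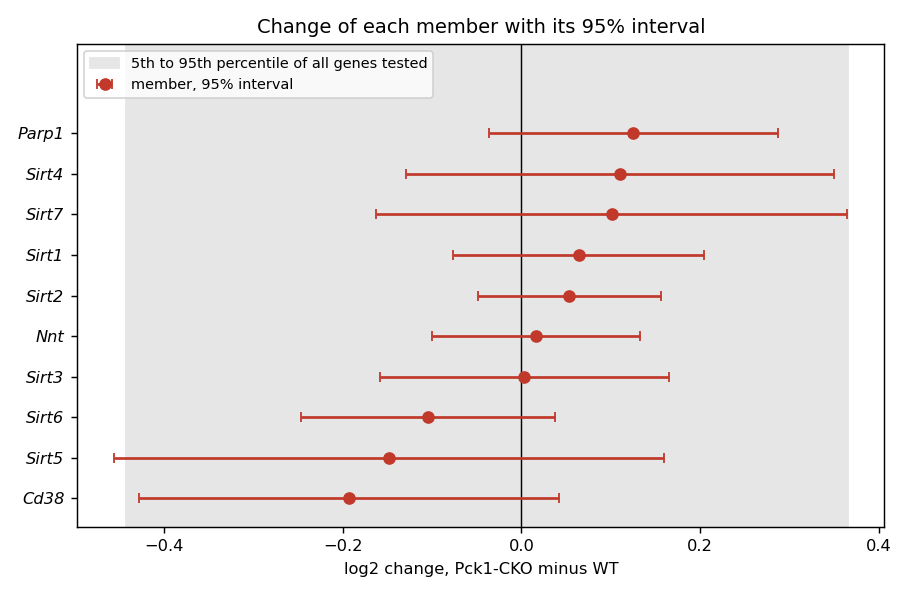
Log2 change (horizontal axis, Pck1-CKO minus WT) of each member with its 95% interval from limma. The grey band marks the range from the 5th to the 95th percentile of all genes tested, -0.44 to 0.37, and all 10 intervals cover 0, from Cd38 at -0.19 to Parp1 at 0.13.

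The RefSeq table matched 17 probes of the array to the 10 genes, all well above background on all 6 arrays. Of the genes, 5 had 1 probe, 3 had 2 and 2 had 3, and the brightest probe stands for the gene in the values above. In a limma fit over 38365 probes, 0 of the 17 were called, where 4.29% of all probes were. Probes of 1 gene share arrays and RNA and are not replicates. The Sirt1 probes differed in sign, at 0.064 (interval -0.087 to 0.21) for A_55_P2030428 and -0.13 (interval -0.36 to 0.11) for A_55_P2598462. The second is dim, with linear signals of 56.8 to 74.3, and both intervals cover 0.

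The 3 Sirt4 probes were all positive, and A_55_P2185372 changed by 0.24 (interval 0.002 to 0.48). It was the only one of the 17 with an unadjusted p under 0.05, where 27.4% of all probes lay under it, and its limma adjusted p was 0.18. Averaging the Sirt4 probes gave a gene-level change of 0.19 (adjusted p = 0.237). The 3 Sirt7 probes were positive as well, and on A_55_P2045693 the signals were -0.52, -0.58 and -0.59 in Pck1-CKO and -0.72, -0.66 and -0.63 in WT. The groups did not overlap there, which with Parp1 made 2 of 17 probes, where the groups did not overlap on 35% of all probes. Both Sirt2 probes were positive and both Sirt6 probes negative. The second Sirt6 probe, A_51_P416215, changed by -0.35 (interval -0.97 to 0.27) at linear signals of only 12.9 to 28.4.

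**Figure D3:**
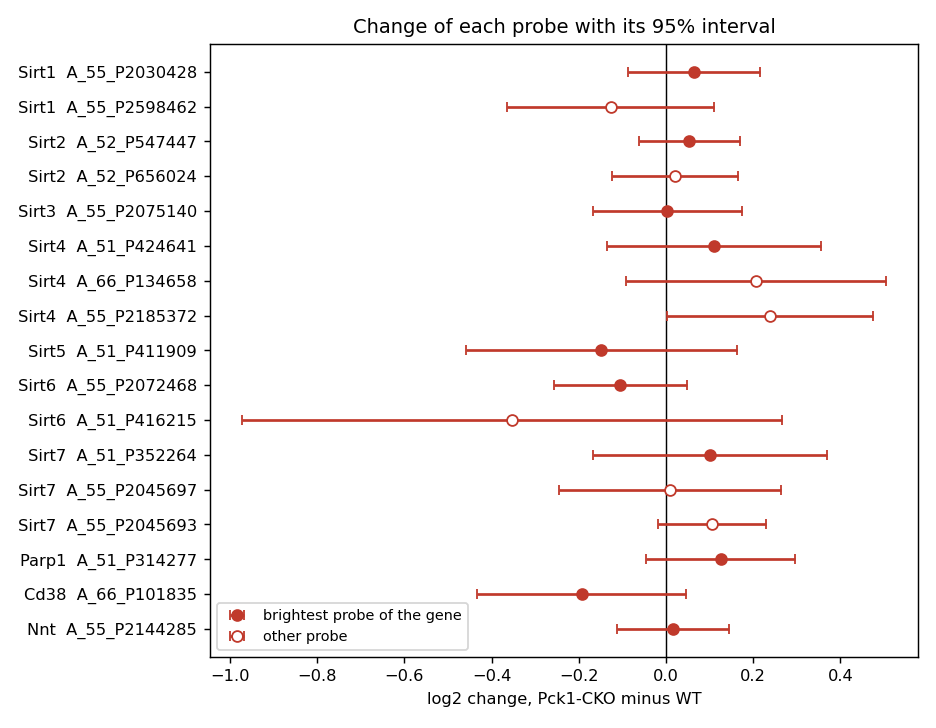
Log2 change (horizontal axis, Pck1-CKO minus WT) of each of the 17 member probes with its 95% interval, filled for the brightest probe of a gene and open for the others. The Sirt4 probe A_55_P2185372, from 0.002 to 0.48, is the only one whose unadjusted interval leaves out 0.

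Lists of genes that work with these enzymes were compared in the same fit. Of 24 other NAD-using enzymes and enzymes of ADP-ribose turnover, 2 were higher and 1 lower, which is 12.5% against 8.04% of all genes. The median log2 change was 0.046, with 15 positive and 9 negative changes. Bst1, which like Cd38 makes cyclic ADP-ribose from NAD and lies directly before Cd38 among the protein-coding genes of chromosome 5 in GRCm38.p6, measured 0.69, 0.77 and 0.39 in Pck1-CKO and -0.28, 0.082 and 0.052 in WT. All Pck1-CKO arrays lay above all WT arrays, and Bst1 rose by 0.67 ± 0.14 (limma adjusted p = 0.0484). The change was positive at Bst1 and negative at Cd38, and the difference between them was not tested. Parp8, a mono-ADP-ribosyltransferase, rose by 0.38 ± 0.044 (adjusted p = 0.0193). Parp2, which acts beside Parp1 at DNA breaks, measured -1.26, -1.17 and -1.16 in Pck1-CKO and -0.89, -0.92 and -0.93 in WT and had a log2 change of -0.28 ± 0.045 (limma adjusted p = 0.0312). Bst1 did not pass without Pck1-CKO 1, Pck1-CKO 2, WT 1, WT 2 or WT 3, with changes of 0.55 to 0.78 over the arrays left out, nor after quantile normalization (adjusted p = 0.0537) or with probes averaged (adjusted p = 0.0509). Parp2 and Parp8 did not pass without Pck1-CKO 1, Pck1-CKO 2, WT 1 or WT 2, with changes of -0.30 to -0.25 and 0.36 to 0.40. With the probes of a gene averaged neither passed, at -0.20 for Parp2 (adjusted p = 0.0638) and 0.17 for Parp8 (adjusted p = 0.0856). With no filter on dim probes, where 0.597% of all genes were called, none of Bst1, Parp2, Parp8, Kynu, Afmid, Nadk, Nnmt and Foxo3 passed.

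Of 24 genes that make, salvage or dispose of NAD, 22 were tested, with Nmnat2 and Nmrk2 below the filter on dim probes. In this list 3 were higher and 1 lower, 18.2%, and the median log2 change was 0.11, with 18 positive and 4 negative changes. Kynu, the kynureninase of the route from tryptophan to NAD, measured -3.24, -2.90 and -3.05 in Pck1-CKO and -1.46, -1.36 and -0.53 in WT, and its log2 change was -1.95 ± 0.26 (limma adjusted p = 0.0247). Afmid, the formamidase earlier in that route, rose by 0.58 ± 0.089 (adjusted p = 0.0294). Nadk, which phosphorylates NAD to NADP, rose by 0.26 ± 0.04 (adjusted p = 0.0293). Nnmt, which methylates nicotinamide and was named after its value was seen, rose by 0.95 ± 0.16 (adjusted p = 0.0338). Nampt, which makes the nicotinamide mononucleotide that replenishes the NAD used by sirtuins, was also singled out afterwards. It changed by 0.15 ± 0.049 (adjusted p = 0.106). None of Kynu, Afmid, Nadk and Nnmt passed without Pck1-CKO 1, Pck1-CKO 2, WT 1 or WT 2, and Nnmt did not without WT 3 either. Their changes over the arrays left out were -2.12 to -1.66 for Kynu, 0.52 to 0.67 for Afmid, 0.25 to 0.29 for Nadk and 0.81 to 1.08 for Nnmt.

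Known substrates and partners of the members were read from the same fit. Of 23 tested substrates of mitochondrial sirtuins, 0 were higher and 1 lower, 4.35% against 8.04% of all genes. The median was 0.027, with 14 positive and 9 negative changes. With an unadjusted p below 0.05, 3 were higher and 2 lower, where 31.2% of all genes lay under it. Cps1 and Otc, the urea cycle enzymes of the list, were not tested. Sod2, the manganese superoxide dismutase, a SIRT3 substrate named after its value was seen, changed by 0.16 ± 0.056 (adjusted p = 0.123).

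Of 22 substrates and partners of nuclear and cytosolic sirtuins, 0 were higher and 1 lower, 4.55% against 8.04% of all genes. The median was 0.072, with 16 positive and 6 negative changes. With an unadjusted p below 0.05, 8 were higher and 2 lower, where 31.2% of all genes lay under it. The groups did not overlap for 13 of the 22, where 38.3% of all genes had no overlap. Foxo3, a transcription factor deacetylated by SIRT1, fell by 0.28 (limma adjusted p = 0.0499). It did not pass without any 1 of the 6 arrays, with changes of -0.32 to -0.22, nor after quantile normalization, scaling on the median or averaging of probes. Ppargc1a, the PGC-1α gene and a SIRT1 substrate named after its value was seen, changed by -0.20 ± 0.063 (adjusted p = 0.097). Of 20 NADPH-making and mitochondrial peroxide-removing enzymes, 0 were called. By an unadjusted p below 0.05, 2 of them were higher and 1 was lower, where 31.2% of all genes lay under it. The median was 0.012, and the lowest p belonged to the malic enzyme Me3 at -0.17 ± 0.057 (limma adjusted p = 0.117). Of the 11 zinc-dependent histone deacetylases, which do not use NAD, 0 were called in limma, and the median was -0.011. At an unadjusted p below 0.05, 1 was higher and 1 was lower, against the same 31.2% of all genes. Hdac7 had the lowest p, with a change of 0.21 ± 0.048 (adjusted p = 0.0559).

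**Figure D4:**
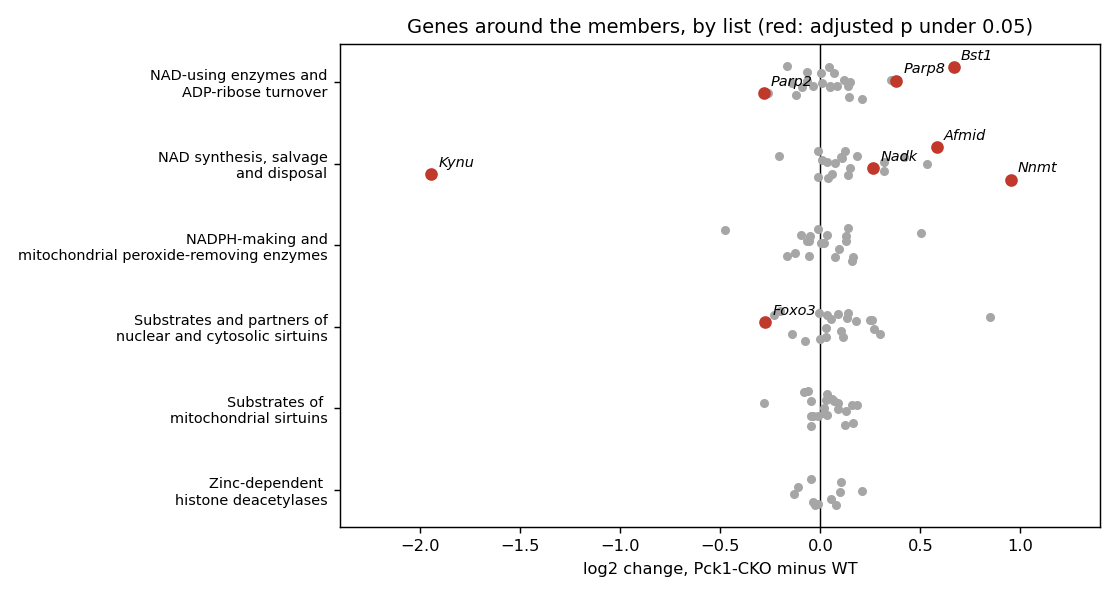
Log2 change (horizontal axis, Pck1-CKO minus WT) of the tested genes in the 6 lists, 1 point per gene and 1 called gene left out, with genes at a limma adjusted p under 0.05 in red. Most points lie near 0, and of those plotted Kynu at -1.95 lies farthest from it.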

How the data were processed

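Per the labels, whole-kidney total RNA carried Cy3 on 1-colour arrays. The deposited scanner files hold intensity from Agilent Feature Extraction 10.7.1.1, whose processed signal the software had detrended and corrected for background, per the file headers. The deposited value table holds a linear ratio, which equals the mean processed signal over 1 factor per array within rounding. Its column medians were 0.1, 0.098 and 0.099 for Pck1-CKO and 0.105, 0.104 and 0.103 for WT. It served as an alternative.

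Outlier-flagged spots, 46 to 94 per array, were left out, and 0 spots were saturated. Spots of a probe were averaged, log2 was taken and each array's 75th percentile over probes subtracted. Of 56605 probes, 34675 matched 1 RefSeq symbol (GRCm38.p6) and 21930 none. The files' headers name mm9, so no probe coordinates are given. A probe was kept, as 38370 were, if well above background on 3 or more of the 6 arrays, and the brightest stood for its gene. Groups of 3 were compared in limma 3.58.1 (R 4.3.3) with Benjamini-Hochberg adjustment, tested on simulated data. The members, the gene lists and the marker lists were chosen with earlier results of these data known. Named from each list were up to 5 genes past the threshold by lowest p, or the 1 with the lowest p. The members, Pck1, the defining markers and the markers weighing most in a sum were named as well. So were the 3 genes closest to the member with the lowest p. Alternatives changed the normalization, background correction, source of values, filter, probe choice, flags, variance model, array weights, replicate block and arrays kept. Of the list genes past the threshold, 2 are counted but not reported here by name, and 1 of them is left out of the plot of the lists.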

Additional observations from a re-analysis of the deposited data

How the results depend on the processing

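Over 17 alternatives, 0 of the 10 members were called in either direction, and the lowest member adjusted p was 0.0983, for Cd38 with the replicate block. In 5 of the 17, 1 of the 10 members had an unadjusted p under 0.05. These were normexp background correction, the replicate block, and the fits without Pck1-CKO 3, WT 2 or WT 3. In the main fit it was 0 of 10, where 31.2% of all genes lay under it. The share over all genes is not given for these 5 fits. Signs turned for Sirt1, at -0.031 with the probes averaged, and for Sirt3 and Nnt, at -0.023 and -0.012 after quantile normalization. Over single arrays left out, the change of Sirt3 ranged from -0.036 to 0.069 and that of Nnt from -0.020 to 0.045. Counts over all genes, 743 higher and 634 lower, moved more: 1218 and 568 after scaling on the median of probes well above background, 61 and 81 with no filter on dim probes, 1682 and 1149 with a trended robust variance, and 3286 and 2614 with array weights. Leaving out 1 array gave 16 to 779 higher and 9 to 806 lower. The low counts came without Pck1-CKO 1, Pck1-CKO 2, WT 1 or WT 2, and 725 and 779 were higher without Pck1-CKO 3 and without WT 3. The cause was not tested. With the replicate block, 3 were higher and 1 lower. Same-numbered arrays did not deviate together, with correlations of -0.0010, -0.115 and -0.023. Those of differently numbered arrays ran from -0.076 to 0.116. Same-numbered arrays shared a slide column. So few arrays cannot settle whether the numbers pair the samples. Of the list genes named as passing, all lost the call with the replicate block and all but Slc12a3 and Slc4a1 with no filter on dim probes. Over the 17 alternatives Foxo3 lost it under 11, Bst1 under 9 and Parp2, Parp8, Nnmt, Lipe and Cd79b under 7 each. Of the list genes short of the threshold, Hdac7 passed under 4 alternatives, Slc22a6 under 3, Plvap and Ppargc1a under 2 each, and Me3, Nampt and Sod2 under 1. No other gene run under the alternatives turned in sign. Lep, Adipoq, Plin1, Cfd, Retn, Umod, Ptprc, Itgam and Csf1r were not run. The number of arrays limits the precision, and each member's interval gives the changes that these data leave possible.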
